A study of Mus musculus with 27 samples.

Results

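The levels of 8 genes that mark bile duct cells and liver progenitors were read from the liver count table: *Krt7*, *Krt19*, *Krt8*, *Krt18*, *Epcam*, *Sox9*, *Spp1* and *Cftr*. They were chosen by name, with earlier results of these data known, and all 8 were found among the 23191 gene symbols of the table. Liver mRNA was sequenced in 27 male C57BL/6J mice that were 8 weeks old when the diets started and ate them for 4 weeks. HGFAC-KO mice carried a whole-body CRISPR deletion that removed part of exon 1 and the whole of exon 2 of *Hgfac*, which encodes a secreted protease of hepatocytes that activates hepatocyte growth factor, and their littermates served as controls. The groups were control Chow (7 mice), KO Chow (6), control HF/HS (7) and KO HF/HS (7), where HF/HS stands for a diet rich in fat and sucrose. Each library is a separate mouse. The comparisons asked whether the deletion, the diet, or their combination went with a different level of these markers.

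Bile ducts are lined by cholangiocytes, a simple epithelium that modifies bile, and they make up a small share of liver cells. Simple epithelia build their intermediate filaments from paired keratins, a type II chain (*Krt7*, *Krt8*) with a type I chain (*Krt18*, *Krt19*). Hepatocytes make *Krt8* and *Krt18* as their only major keratin pair, while *Krt7* and *Krt19* are keratins of the ducts that mesothelial cells of the liver surface make as well. *Epcam* encodes a surface adhesion protein of ducts and progenitors, *Cftr* the chloride channel of the duct lumen, and *Sox9* a transcription factor of duct cells, periportal hepatocytes and progenitors that is known as a Notch and YAP target. *Spp1* encodes osteopontin, a secreted phosphoprotein made by duct cells and by some macrophages.

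*Krt8* and *Krt18* lie near each other on mouse chromosome 15 and were the members whose levels moved together most closely from mouse to mouse, so the sequence before their starts is shown. *Krt8* (chromosome 15, 101996698 to 102004482, minus strand, GRCm38) and *Krt18* (chromosome 15, 102028180 to 102032027, plus strand) point away from each other, with 23698 bases between their GENCODE start sites. In RefSeq sequence of GRCm38.p6, both genes carry the letters TATAA close to the RefSeq start, and capitals mark these letters in the stretches of 30 bases at chr15:102004326-102004355 (minus strand) and chr15:102028185-102028214 (plus strand).
Krt8, around TATAA: ggcctcttctttTATAAagggccttcgctg
Krt18, around TATAA: ctcccgcggcgaTATAAcaacaggtcgagg
Krt8, before the start, chr15:102004483-102004592: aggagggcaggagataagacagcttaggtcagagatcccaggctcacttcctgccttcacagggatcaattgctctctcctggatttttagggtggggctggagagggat
Krt18, before the start, chr15:102027966-102028179: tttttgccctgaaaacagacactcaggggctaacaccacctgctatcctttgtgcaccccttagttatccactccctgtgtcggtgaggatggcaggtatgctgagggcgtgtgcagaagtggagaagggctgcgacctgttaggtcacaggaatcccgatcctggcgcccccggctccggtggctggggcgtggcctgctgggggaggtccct
The GENCODE start lies 140 bases upstream of the RefSeq start for *Krt8* and 36 bases upstream for *Krt18*, so the longer stretches end before the earlier of these starts. RefSeq windows of 300 bases were at hand for 6 of the 8 members. The letters of 5 motifs were searched on both strands. Among 32544 distinct windows, the motif TATAA was present in 24.8%, the motif GGGCGG in 35.9%, the motif TGANTCA in 7.79%, the motif TGGGAA in 25.4% and the motif GGAATG in 14.6%. TATAA was also found in the windows of *Spp1*, GGGCGG in those of *Krt7*, *Epcam* and *Cftr*, and TGGGAA only in that of *Krt8* among these members. The motifs TGANTCA and GGAATG were in none of the members' windows. These are matches of letters, not binding sites, and windows for *Krt19* and *Sox9* were not used here.

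Total counts per mouse ran from 36056177 to 57298657. Levels are given as CPM, counts scaled to 1000000 per library over named genes after TMM normalization. *Hgfac* lay at 183 to 219 CPM (control Chow), 247 to 296 (control HF/HS), 65.4 to 84.5 (KO Chow) and 81.8 to 101 (KO HF/HS), so each library matched its genotype label. In these livers 12 hepatocyte genes summed to between 89868 and 127200 CPM, while the defining duct genes were low: *Cldn7* had 11 to 50 counts per mouse and *Sctr*, the secretin receptor, 2 to 11. A list of 14 acute phase genes stood apart in 3 mice, with sums of 21968 CPM in KO Chow replicate 4, 21759 in control HF/HS replicate 7 and 21328 in KO HF/HS replicate 2, and the edgeR fits were repeated without them. In bulk tissue, fewer cells of a type and less RNA per cell cannot be told apart.

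**Figure D1:**
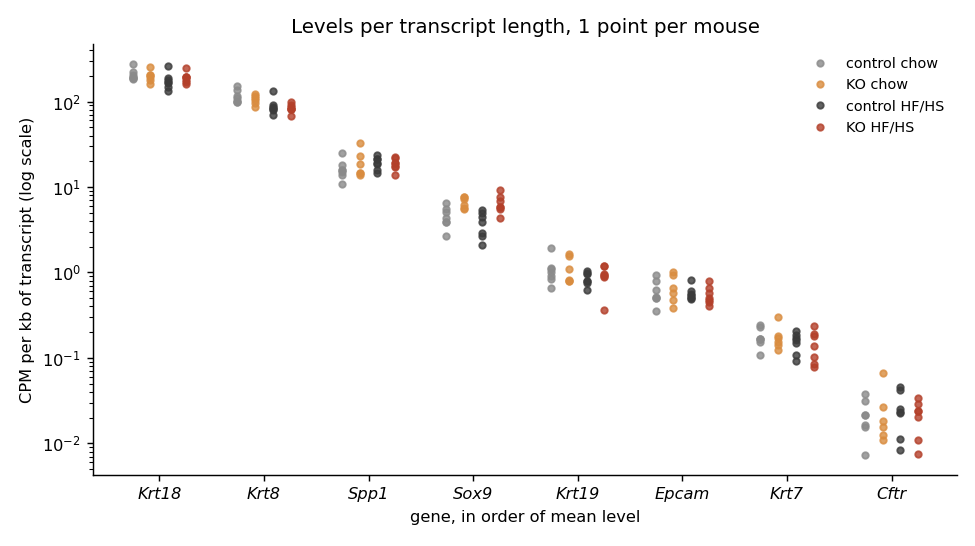
CPM per kb of transcript on a log scale for the 8 members in order of their mean level, with 1 point per mouse and the 4 groups side by side. *Krt18* and *Krt8* lie at 68.4 or above in every mouse, and *Cftr* at 0.0663 or below.

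Per length of transcript, the keratin pair of simple epithelia was far above the other members. *Krt18*, the type I chain, averaged 193 CPM per kb over all 27 mice (131 to 278), and its partner *Krt8* averaged 98.5 CPM per kb (68.4 to 152). *Spp1* followed at 18.4 CPM per kb (10.9 to 32.5) and *Sox9* at 5.3 CPM per kb (2.1 to 9.2). The remaining duct markers were lower, with *Krt19* at 0.989 CPM per kb, *Epcam* at 0.596, *Krt7* at 0.162 and *Cftr* at 0.0233. Each gene stood above the next one down in all 27 mice, except that *Krt19* exceeded *Epcam* in 25 of 27 mice, where the mean ratio was 1.66. The length used for *Krt7* (4094 bases) is that of 1 of several annotated transcripts, so its place on this scale is less sure. *Cftr* rested on 2 to 19 counts per mouse and did not pass the filter on low counts in any comparison, so 7 of the 8 members were tested across all genes.

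**Figure D2:**
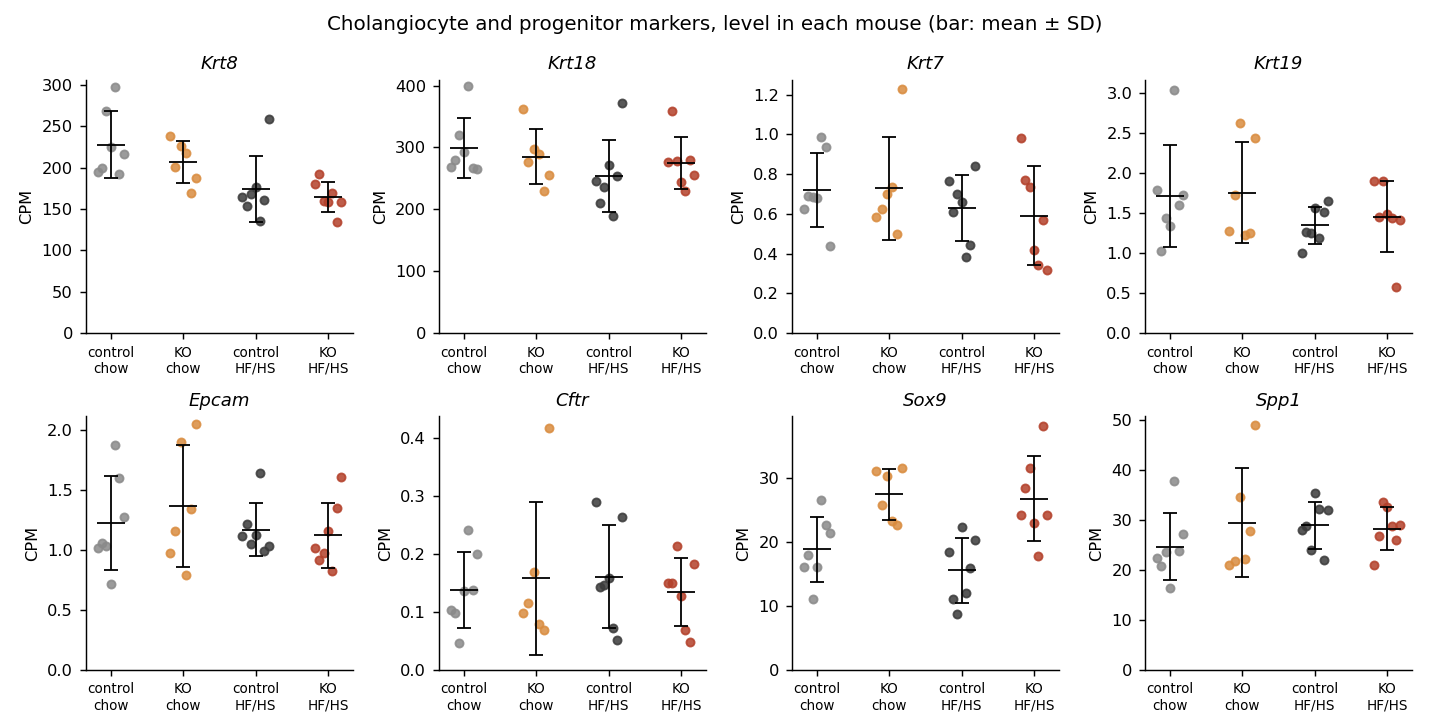
CPM of each member in each mouse, with 1 panel per gene, the 4 groups on the x axis, points for mice and bars for the mean ± SD. For *Krt8*, 6 of 7 control HF/HS mice and 4 of 7 KO HF/HS mice sit below all mice of their genotype on chow, and for *Sox9* each HGFAC-KO mouse sits above the control median of its diet.

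*Krt8* fell on the HF/HS diet in HGFAC-KO mice, and its difference in controls was as large but did not pass the test. Control Chow mice had 192 to 298 CPM of *Krt8* (median 216), and control HF/HS mice 136 to 259 (median 165). Of the 7 controls on HF/HS, 6 lay below every control on chow, and replicate 7 alone lay inside the chow range. KO Chow mice had 169 to 238 CPM (median 209), and KO HF/HS mice 134 to 192 (median 160). There 4 of the 7 HF/HS mice lay below every mouse on chow, and none reached the chow median.

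In HGFAC-KO mice the fall of *Krt8* by 0.33 on the log2 scale (SE 0.09, 95% interval -0.52 to -0.14) passed the threshold of edgeR's quasi-likelihood test at an adjusted p of 0.0433. It was the only one of the 7 tested members that did, in a comparison where 5.89% of all tested genes passed and 22.4% had an unadjusted p under 0.05. In controls the difference was of like size (log2 -0.39, SE 0.13, interval -0.67 to -0.11) with an adjusted p of 0.0757 in edgeR, while DESeq2 gave an adjusted p of 0.0386. None of the 7 members passed in controls, where 10.5% of all tested genes passed and 25.4% had an unadjusted p under 0.05, as did 1 member. Exact two-sided permutation tests of the mean log2 level gave p = 0.021 in controls and p = 0.00816 in HGFAC-KO mice, where the smallest p the design allows is 5.83e-04. The edgeR call in HGFAC-KO mice was near the threshold. It was lost when replicate 1, 2, 3 or 4 of the KO Chow group was left out (edgeR adjusted p = 0.0703, 0.0782, 0.0888 and 0.0826), or replicate 3, 4, 5, 6 or 7 of KO HF/HS (edgeR adjusted p = 0.0791, 0.0723, 0.0501, 0.0762 and 0.0798). Of 9 settings 5 passed. The call was lost with replicate number as a block (edgeR adjusted p = 0.0621), with all 27 mice in the fit (0.0916), without the filter on low counts (0.0502) and without the 3 acute phase mice (0.0568). In controls, the fit that omitted replicate 7 of the HF/HS group gave -0.51 and an edgeR adjusted p of 0.00478.

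With both genotypes in 1 fit, a comparison added after the separate results had been seen, *Krt8* was lower on HF/HS by 0.36 on the log2 scale (SE 0.08, edgeR adjusted p = 0.00304). It was the only member called there, against 23.5% of all tested genes (35.8% at an unadjusted p under 0.05). The call held in each of the 27 fits that left out 1 mouse, with differences between -0.42 and -0.32, and without the 3 acute phase mice it was -0.43 (edgeR adjusted p = 1.34e-04).

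*Krt18*, the usual partner of *Krt8*, did not pass in any of these comparisons with all mice. Its level was 265 to 399 CPM in control Chow mice (median 279), 189 to 372 in control HF/HS (median 246), 230 to 362 in KO Chow (median 283) and 229 to 359 in KO HF/HS (median 277). The diet groups overlapped in both genotypes, although 5 of 7 control HF/HS mice lay below every control Chow mouse. The diet difference was -0.24 (SE 0.13, edgeR adjusted p = 0.277) in controls and -0.06 (SE 0.11, adjusted p = 0.803) in HGFAC-KO mice. Over both genotypes it was -0.14 (SE 0.09, edgeR adjusted p = 0.255), and *Krt18* was called there without the 3 acute phase mice (edgeR adjusted p = 0.0267). Control HF/HS replicate 7 again held the highest value of its group, at 372 CPM, and without it the control difference was -0.35 with an adjusted p of 0.0407.

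**Figure D3:**
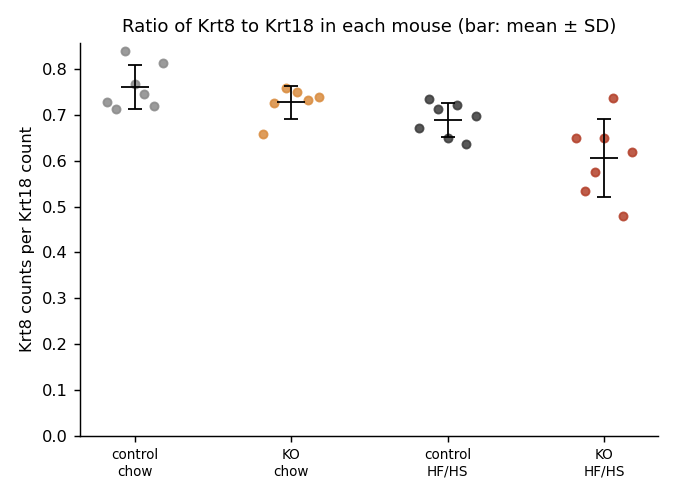
Ratio of *Krt8* counts to *Krt18* counts in each mouse (y axis, from 0) for the 4 groups, with bars for the mean ± SD. The ratio is highest in controls on chow (0.714 to 0.84) and lowest in HGFAC-KO mice on HF/HS (0.48 to 0.737).

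The ratio of *Krt8* to *Krt18* counts within a library does not depend on normalization, and it was examined after both genes' values had been seen. It averaged 0.762 ± 0.0485 (SD, n = 7) in control Chow mice, 0.727 ± 0.0364 (n = 6) in KO Chow, 0.689 ± 0.037 (n = 7) in control HF/HS and 0.607 ± 0.0849 (n = 7) in KO HF/HS. On HF/HS, 5 of 7 controls and 6 of 7 HGFAC-KO mice lay below every mouse of their genotype on chow. On the log2 scale the HF/HS mean was lower by 0.14 in controls (exact permutation test, two-sided, p = 0.00758, 0.0152 after adjustment over the 4 comparisons of the ratio) and by 0.27 in HGFAC-KO mice (exact permutation p = 0.00699, adjusted 0.0152). Between genotypes, the log2 difference was -0.07 on chow (exact permutation p = 0.203) and -0.19 on HF/HS (exact permutation p = 0.0355, adjusted 0.0473), where 4 HGFAC-KO mice lay below all controls and 1 above. A difference between the genotypes in the diet effect on the ratio was not tested.

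Genes of other liver cells moved with diet too. Of 14 genes of Kupffer cells and macrophages, 8 rose on HF/HS over both genotypes in edgeR and 0 fell, beside 23.5% of all tested genes called, and so did 5 of 8 genes of sinusoidal endothelium. In HGFAC-KO mice alone 8 of the 14 rose (5.89% of all genes called). In controls 12 of 14 had higher means, none passed (10.5% of all genes called) and 4 had an unadjusted p under 0.05, 3 higher and 1 lower (25.4% of all genes). For the interaction of genotype and diet 0 of 14 passed, beside 0% of all genes. All 14 interaction values were positive, and 0 had an unadjusted p under 0.05 (3.63% of all genes). Their summed level was 223 to 463 CPM in control Chow, 272 to 567 in control HF/HS, 212 to 328 in KO Chow and 307 to 470 in KO HF/HS. Replicate 7 was the highest of the control HF/HS mice for *Krt8*, for *Krt18*, for this sum and for the acute phase sum. The part of macrophage and acute phase genes in the keratin levels was not tested. In the fit without the 3 acute phase mice, *Krt8* had an adjusted p of 0.00478 in controls and 0.0568 in HGFAC-KO mice (log2 -0.51 and -0.36).

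*Sox9* had higher mean levels in HGFAC-KO mice on each diet, without passing the edgeR threshold on either. Control Chow mice had 11.1 to 26.5 CPM (median 17.9), and KO Chow mice 22.6 to 31.5 (median 27.9). Control HF/HS mice had 8.66 to 22.3 CPM (median 15.9), and KO HF/HS mice 17.8 to 38.1 (median 24.2). On chow 3 of 6 HGFAC-KO mice lay above every control, on HF/HS 6 of 7 did, and each of the 13 HGFAC-KO mice lay above the control median of its diet.

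The *Sox9* difference on chow was 0.55 on the log2 scale (SE 0.16, interval 0.2 to 0.9), or 1.47-fold, with an unadjusted p of 0.00462 in edgeR and an adjusted p of 0.801. On HF/HS it was 0.78 (SE 0.21, interval 0.34 to 1.23), or 1.72-fold, with an unadjusted p of 0.00205 and an adjusted p of 0.344 in edgeR. DESeq2 gave an adjusted p of 0.0342 on HF/HS for the same mice, with 55 genes called against 2 in edgeR. The exact two-sided permutation tests gave p = 0.0111 on chow and p = 0.00466 on HF/HS, among 32 such tests of the members. No member passed in edgeR in either genotype comparison, where 0.00737% of all tested genes passed on chow and 0.0148% on HF/HS. At an unadjusted p under 0.05 there was 1 member on each diet, *Sox9* in both cases, against 5.98% and 9.64% of all tested genes.

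Over both diets, again a comparison added after the 2 diets had been seen, *Sox9* was higher by 0.66 (SE 0.14, interval 0.37 to 0.95) with an adjusted p of 0.0532 in edgeR, 18th by p among 13932 genes. Here 0.1% of all tested genes passed and 12.7% had an unadjusted p under 0.05. DESeq2 (adjusted p = 0.00147), limma voom (0.0407) and upper-quartile normalization (0.0498) placed *Sox9* past the threshold, and so did edgeR without the 3 acute phase mice (0.0416). The other 4 of the 8 settings, edgeR as first fitted among them, did not, with an adjusted p of up to 0.0852 under the replicate block. Of the 27 fits that left out 1 mouse, 6 passed and the others did not, with edgeR adjusted p up to 0.0944. The fits that passed left out control Chow replicate 5 (edgeR adjusted p = 0.0344), control HF/HS replicate 4 (0.0258) or 7 (0.0262), KO Chow replicate 4 (0.0489), and KO HF/HS replicate 4 (0.0443) or 5 (0.026). Exchanging genotype labels within each diet, in all 5889312 arrangements, gave a two-sided exact permutation p of 6.32e-05 for a mean difference of 0.7, among 16 such tests over both diets or genotypes that were added later.

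*Sox9* showed no diet difference beyond its spread. HF/HS against chow gave -0.28 (SE 0.22, interval -0.74 to 0.19, edgeR adjusted p = 0.471) in controls and -0.04 (SE 0.15, interval -0.36 to 0.28, adjusted p = 0.907) in HGFAC-KO mice. *Hes1*, a transcriptional repressor and a direct target of Notch signaling, was the only gene of the Notch and YAP list that passed for genotype over both diets (log2 0.64, SE 0.11, edgeR adjusted p = 0.0198). The call held in 26 of the 27 fits that left out 1 mouse and was lost without KO Chow replicate 1 (edgeR adjusted p = 0.0503). Of the 17 genes of that list, 11 were higher and 6 lower in HGFAC-KO mice (median log2 0.03), and 0.1% of all tested genes passed. At an unadjusted p under 0.05 there were 3 of the 17, 2 higher and 1 lower, beside 12.7% of all genes. *Hes1* averaged 12.9 ± 2.52 CPM in control Chow, 17.4 ± 2.72 in KO Chow, 11.4 ± 1.9 in control HF/HS and 20.5 ± 5.4 in KO HF/HS (SD, n = 6 or 7). Over the 27 mice, after subtraction of group means, *Sox9* and *Hes1* had a Pearson r of 0.56, beside a median of 0.26 for *Sox9* with the 17 Notch and YAP genes (14 positive, highest *Ajuba* at 0.7) and of 0.01 with all genes.

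*Spp1*, *Epcam*, *Krt19*, *Krt7* and *Cftr* showed no call for genotype or diet, and their groups overlapped throughout. *Spp1* lay at 16.4 to 37.8 CPM in control Chow (median 23.6), 21 to 49 in KO Chow (median 25), 21.9 to 35.3 in control HF/HS (median 28.7) and 21 to 33.6 in KO HF/HS (median 28.7). Its genotype differences were 0.27 on chow (interval -0.22 to 0.75) and -0.03 on HF/HS (interval -0.27 to 0.21). The second of these intervals is the narrowest of the 4 for this gene. Diet differences of *Spp1* were 0.23 in controls (interval -0.09 to 0.56) and -0.06 in HGFAC-KO mice (interval -0.46 to 0.34).

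*Epcam* was measured with 30 to 93 counts per mouse. Its level was 0.716 to 1.88 CPM in control Chow (median 1.06), 0.788 to 2.05 in KO Chow (median 1.25), 0.991 to 1.64 in control HF/HS (median 1.12) and 0.823 to 1.61 in KO HF/HS (median 1.02). The genotype differences were 0.17 (interval -0.36 to 0.71) and -0.06 (interval -0.41 to 0.29). The diet differences were -0.06 in controls (interval -0.47 to 0.34) and -0.29 in HGFAC-KO mice (interval -0.78 to 0.2).

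*Krt19* lay at 1.03 to 3.04 CPM in control Chow (median 1.6), 1.23 to 2.62 in KO Chow (median 1.49), 0.994 to 1.65 in control HF/HS (median 1.26) and 0.569 to 1.9 in KO HF/HS (median 1.45). The diet difference was -0.35 in controls (interval -0.77 to 0.07, edgeR adjusted p = 0.293) and -0.28 in HGFAC-KO mice (interval -0.82 to 0.27, adjusted p = 0.561). *Krt7*, a type II keratin of ducts, lay at 0.439 to 0.985 CPM (median 0.686), 0.5 to 1.23 (median 0.662), 0.381 to 0.839 (median 0.66) and 0.318 to 0.98 (median 0.569) in the same order of groups. Its diet differences were -0.19 (interval -0.63 to 0.25) and -0.31 (interval -0.92 to 0.3). The genotype differences of both genes lay between -0.09 and 0.11.

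*Cftr* had 2 to 19 counts per mouse, and group means of 0.137 ± 0.0654 CPM in control Chow, 0.158 ± 0.132 in KO Chow, 0.161 ± 0.0891 in control HF/HS and 0.134 ± 0.059 in KO HF/HS (SD, n = 6 or 7). The exact permutation tests gave p = 0.895 and p = 0.626 for genotype on chow and HF/HS, and p = 0.679 and p = 0.855 for diet in controls and HGFAC-KO mice. No difference of *Cftr* was found with these few counts.

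**Figure D4:**
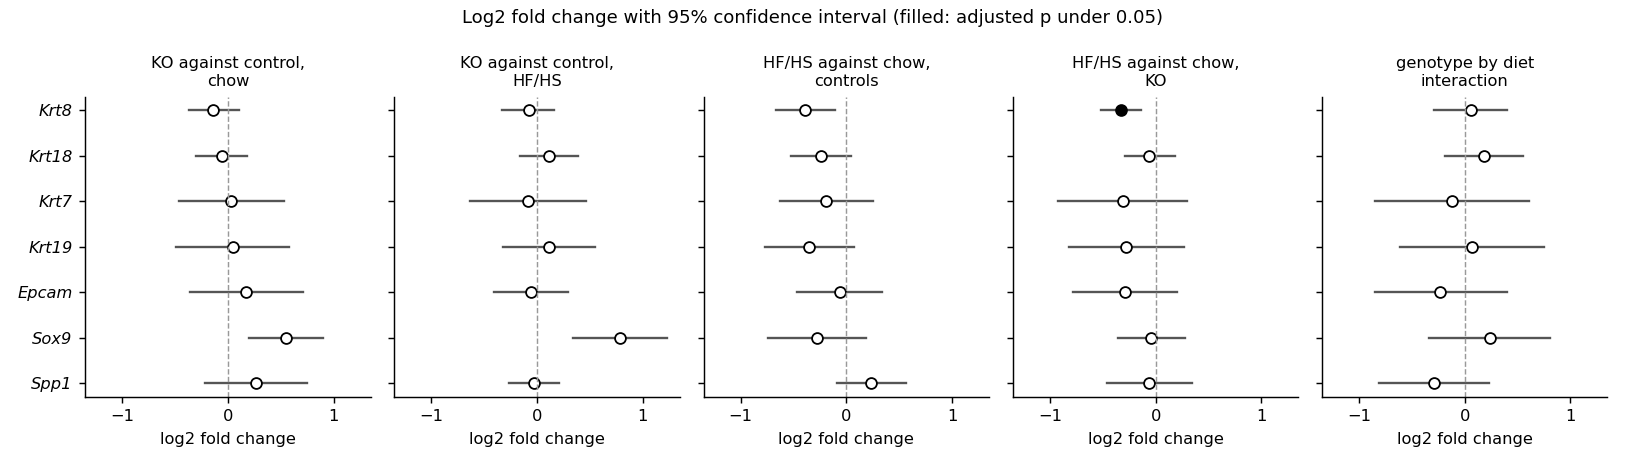
Log2 fold changes of the 7 tested members with 95% confidence intervals in the 5 comparisons (x axis), filled where the adjusted p was under 0.05. *Krt8* in HGFAC-KO mice (HF/HS against chow, -0.33) is the only filled point, and the intervals of *Sox9* exclude 0 in both genotype comparisons.

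Across the 7 tested members the median log2 difference was 0.05 for genotype on chow and -0.03 on HF/HS, beside medians over all tested genes of 0.003 and -0.002. For HF/HS against chow the members' median was -0.24 in controls, with 6 of 7 lower, and -0.28 in HGFAC-KO mice, with 7 of 7 lower, beside 0.004 over all genes in each. The genotype and diet comparisons share groups of mice. In edgeR's test of the difference between the genotype effects on HF/HS and on chow, no member passed (smallest edgeR adjusted p = 0.984), where 0% of all tested genes passed and 3.63% had an unadjusted p under 0.05, among them 0 members. The interaction of *Sox9* was 0.24 (interval -0.34 to 0.81) and that of *Spp1* -0.29 (interval -0.81 to 0.23).

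**Figure D5:**
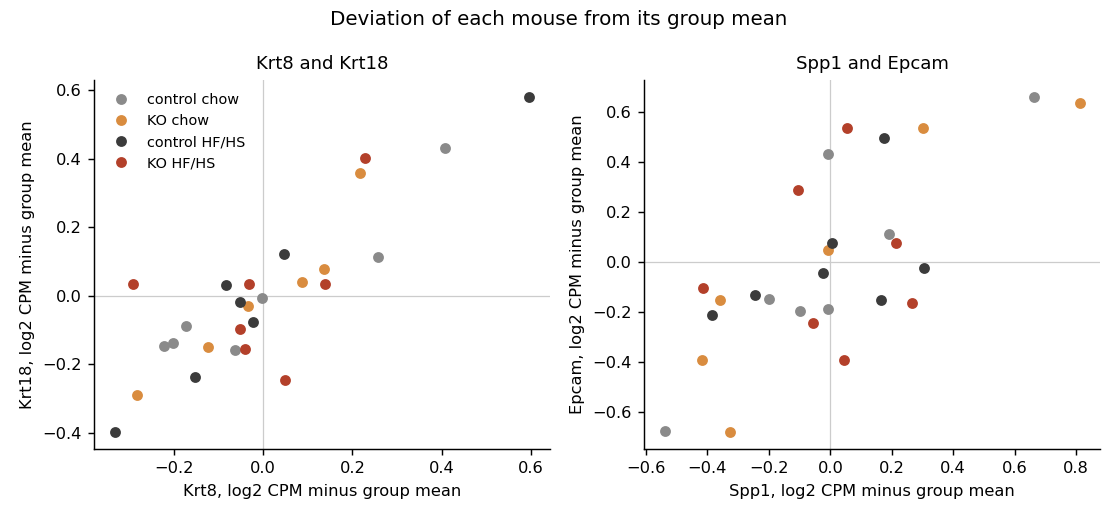
Deviation of each mouse from its group mean in log2 CPM, *Krt18* against *Krt8* on the left and *Epcam* against *Spp1* on the right, colored by group. The points of *Krt8* and *Krt18* lie along a line (r = 0.86), and those of *Epcam* and *Spp1* more loosely (r = 0.72).

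Within groups, *Krt8* varied with *Krt18* and *Epcam* with *Spp1* from mouse to mouse. After subtraction of group means, *Krt8* and *Krt18* had a Pearson r of 0.86 (permutation p = 2.00e-05, mice exchanged within groups, 4.20e-04 after adjustment over 21 pairs) and a Spearman rho of 0.74 (permutation p = 8.00e-05, adjusted 0.00168) over 27 mice. Without the 2 mice farthest from the median of *Krt8*, r was 0.75. The r was 0.93 in controls and 0.95 in HGFAC-KO mice on chow, 0.97 in controls on HF/HS, and 0.41 in HGFAC-KO mice on HF/HS. *Epcam* and *Spp1* had an r of 0.72 (permutation p = 3.80e-04, adjusted 0.00399) and a rho of 0.65 (permutation p = 0.00135, adjusted 0.0142), with an r of 0.59 without the 2 mice farthest in *Epcam*. That relation was close on chow (0.89 in controls, 0.9 in HGFAC-KO mice) and loose on HF/HS (0.49 and 0.02). Differences of r between groups were not tested.

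*Krt19* and *Spp1* had an r of 0.54 (permutation p = 0.00768, adjusted 0.0538) and a rho of 0.54 (permutation p = 0.0085, adjusted 0.0463), and r was 0.52 without the 2 farthest mice. *Krt7* and *Krt18* had an r of 0.47 (permutation p = 0.0149, adjusted 0.0626) and a rho of 0.52 (permutation p = 0.00881, adjusted 0.0463), with an r of 0.61 without the 2 farthest mice. The 17 other pairs had adjusted p values above 0.05 by both measures. *Krt8* with *Epcam* (r = -0.2) and *Krt18* with *Spp1* (r = 0.02) were among them.

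The genes most like each member over the 27 mice, by Pearson r after subtraction of group means among 13932 genes, are given as a description. *Krt8* and *Krt18* were nearest to each other, followed by *Creb3l1* (0.83) and *Syne4* (0.8) for *Krt8* and by *Prkab2* (0.85) and *Thbs1* (0.82) for *Krt18*. *Spp1* was nearest to *Lamc3* (0.84), the epithelial transcription factor *Ehf* (0.77) and the glucose carrier *Slc5a1* (0.76), the last pair being genes of the duct list. *Epcam* was nearest to *Pias1* (0.79), *Cd24a* (0.77) and *Lamc3* (0.76). *Krt19* was nearest to *Ackr3* (0.76), *Bicc1* (0.75), a duct list gene that is mutated in cystic kidney disease of mice, and *Tmem231* (0.71). *Krt7* was nearest to the protease inhibitor *Slpi* (0.79), *Cldn15* (0.77) and *Ezr* (0.77), and *Sox9* to *Zfp142* (0.82), *Srsf7* (0.81) and *Prpf3* (0.81).

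*Krt7* also followed genes of the mesothelium, the cell layer that covers the liver surface. Of 10 mesothelium genes 9 were measured well enough, and all 9 had a positive r with *Krt7*, with a median of 0.63 against 0.01 over all genes. The median r of *Krt7* was 0.23 with 24 duct genes, 0.12 with 16 progenitor genes, 0.09 with Kupffer cell genes and 0.08 with stellate cell genes. With the duct genes the median was 0.21 for *Krt19*, 0.3 for *Epcam*, 0.28 for *Spp1*, 0.07 for *Krt18* and 0.06 for *Sox9*, and about 0 for *Krt8*. *Msln*, which encodes mesothelin, had an r of 0.74 and *Upk3b* an r of 0.67. The summed level of the 10 genes was 3.44 to 8.83 CPM in control Chow, 2.8 to 9.02 in KO Chow, 2.12 to 11.8 in control HF/HS and 1.71 to 19.2 in KO HF/HS. Its highest mouse was control Chow replicate 5, KO Chow replicate 6, control HF/HS replicate 1 and KO HF/HS replicate 1, and *Krt7* was highest in the same mouse in 3 of these 4 groups. In each comparison within a diet or genotype 7 mesothelium genes were tested and none passed, beside 0.00737% to 10.5% of all genes. The part of this tissue in the *Krt7* level was not tested. The 9 genes were all positive with *Krt19* (median r 0.41), *Krt18* (0.39), *Krt8* (0.3) and *Sox9* (0.25) too, while the median was 0.02 with *Epcam* and 0.04 with *Spp1*. Differences between these medians were not tested.

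The wider duct list held 30 genes, of which 24 were tested. None passed for genotype on chow (19 higher, 5 lower, median 0.08) or on HF/HS (12 higher, 12 lower), and 1 had an unadjusted p under 0.05 on each diet, beside 5.98% and 9.64% of all genes. For diet, none of the 24 passed in controls (10.5% of all genes), with 2 at an unadjusted p under 0.05 (25.4% of all genes). In HGFAC-KO mice 1 of 24 passed (5.89% of all genes), and the unadjusted p was under 0.05 for 5 (22.4% of all genes), shares near or below those over all genes. The 1 gene called was *Krt23*, a type I keratin of ducts, which fell by 0.87 (SE 0.24, edgeR adjusted p = 0.0469), from 1.66 ± 0.579 to 0.912 ± 0.28 CPM. *Clu* alone held 78.8% to 79.9% of the list's summed level, and *Clu*, *Aqp1* and *Cdh1* are expressed by other liver cells too. The *Krt23* call held in 2 of the 13 fits that left out 1 mouse (edgeR adjusted p up to 0.124). Over both genotypes 4 of 24 passed, beside 23.5% of all genes: *Krt23* (log2 -0.60) and the anion exchanger *Slc4a2* (-0.15) were lower on HF/HS in edgeR, and the water channel *Aqp1* (0.26) and the bile acid carrier *Slc10a2* (0.75) higher. *Pkhd1*, which encodes a protein of the duct cilium, ranged from 3.27 to 9.19 CPM over all mice.

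In the list of progenitor and ductular reaction genes, 15 or 16 of 18 were tested and none passed for genotype on either diet, with 2 of 15 on each at an unadjusted p under 0.05, beside 5.98% and 9.64% of all genes. For diet 2 of 15 passed in controls, beside 10.5% of all genes, and 1 of 16 in HGFAC-KO mice, beside 5.89%, which is near the share over all genes. Over both genotypes 3 of 16 passed, all higher, beside 23.5% of all genes. On HF/HS, *Lgr5*, a Wnt target of hepatocytes around the central vein, rose in controls by 0.56 (SE 0.13, edgeR adjusted p = 0.0116), and *Tnfsf12*, the ligand TWEAK that drives ductular reactions, by 0.29 (SE 0.09, adjusted p = 0.0449). *Cd44*, a hyaluronan receptor that leukocytes also carry, rose in HGFAC-KO mice by 0.76 (SE 0.2, edgeR adjusted p = 0.0381). With 1 mouse left out, the call held in 14 of 14 fits for *Lgr5*, 2 of 14 for *Tnfsf12* (edgeR adjusted p up to 0.0949) and 5 of 13 for *Cd44* (up to 0.0908). The summed level of the list ranged from 48.1 to 61.6 CPM on chow and from 56.2 to 76.5 CPM on HF/HS.

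In the list of Notch and YAP genes, all 17 that the table held were tested, and none passed for genotype on a single diet, with 2 of 17 on chow and 4 of 17 on HF/HS at an unadjusted p under 0.05, beside 5.98% and 9.64% of all genes. For diet 1 of 17 passed in controls, beside 10.5% of all genes, and 2 of 17 over both genotypes, beside 23.5%. The 2 were *Ajuba*, lower on HF/HS (log2 -0.51), and *Lats2*, higher (0.20). *Ajuba*, a LIM protein that restrains Hippo signaling, fell on HF/HS in controls by 0.71 (SE 0.12, edgeR adjusted p = 9.31e-04), and none passed for diet in HGFAC-KO mice. Among 15 other epithelial keratins and filament partners, 9 or 10 were tested, and 2 of 10 passed for diet in controls (10.5% of all genes) and 1 of 9 in HGFAC-KO mice (5.89%). Over both genotypes 5 of 10 passed, beside 23.5% of all genes: *Ppl* (log2 -0.72), *Jup* (-0.19), *Lmna* (-0.20) and *Krt4* (-0.73) were lower on HF/HS and *Krt10* (0.20) higher. With 1 mouse left out, these calls over both genotypes held in 17 of 27 fits for *Krt4*, 14 of 27 for *Krt10* and all 27 for the others. *Lmna*, which encodes the nuclear filament lamin A, fell by 0.23 (SE 0.06, edgeR adjusted p = 0.0149) and *Ppl*, which encodes the plakin periplakin, by 0.86 (SE 0.25, adjusted p = 0.0394) in controls on HF/HS. *Jup*, which encodes plakoglobin of desmosomes, fell by 0.22 in HGFAC-KO mice (SE 0.05, edgeR adjusted p = 0.0194). Within a genotype, the calls of *Ajuba*, *Lmna* and *Jup* held in all fits that left out 1 mouse, and that of *Ppl* in 5 of 14 (edgeR adjusted p up to 0.083). *Krt5* had no count in any mouse, and *Krt20* had 1 count in 1 mouse.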

How the data were processed

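Liver mRNA was sequenced as 50-base read pairs from 27 mice. Per the study's methods, the authors aligned reads with HISAT2 to GRCm38, counted them with featureCounts (version 1.6.3 in the submitters' processing notes) and deposited raw counts per gene, 1 column per mouse. The strand setting of the counting is not given in the sources used here, and *Krt7*, *Krt8*, *Spp1* and *Cftr* each overlap another annotated gene. Rows without a gene name (4.13% to 12.1% of counts) were left out, and rows that share a symbol were summed. Groups came from the labels.

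Counts were tested with edgeR (version 4.0.16, R 4.3.3) by its quasi-likelihood test with TMM normalization, after a filter for genes with at least 10 counts in enough mice, on the mice of each comparison, with Benjamini-Hochberg adjustment over all tested genes and a threshold of 0.05. Log2 CPM used a prior count of 2. Single members were also compared by exact permutation tests in scipy (version 1.17.1), 32 within a diet or genotype and 16 over both, added later. DESeq2 (version 1.42.0), limma voom (version 3.58.1), other filters, normalizations and sample sets were alternatives. All 8 members were named, with the 3 genes most like each member. Genes of each list past the threshold within a diet or genotype were named too (at most 6, otherwise the 3 with the smallest p). Of those past it over both diets or genotypes, some were named. The members and gene lists were chosen with earlier results of these data known. The lists covered ducts, progenitors, Notch and YAP, keratin partners, mesothelium, gallbladder, pancreas and gut epithelium, Kupffer cells and macrophages, lipid-associated macrophages, stellate cells, sinusoidal endothelium, hepatocytes and the acute phase. Same-numbered mice of different groups deviated together (correlation over 0.1) in 0 of 7 to 4 of 6 pairs, depending on the groups, so the replicate numbers were not taken to pair mice. The scripts were tested on simulated data.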

Additional observations from a re-analysis of the deposited data

Results flagged for a closer look

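In 9 of 36 sets of values (8 members and the *Krt8* to *Krt18* ratio in 4 groups), 1 mouse lay farther from the rest of its group than Dixon's 95% limit allows, which chance gives in about 1 of 20 sets. *Krt8* stood at 259 CPM in control HF/HS replicate 7, against 136 to 177 CPM in the other mice of its group. *Krt18* stood at 399 CPM in control Chow replicate 5 (others 265 to 320) and at 359 CPM in KO HF/HS replicate 2 (others 229 to 279). The *Krt8* to *Krt18* ratio was 0.658 in KO Chow replicate 1 (others 0.726 to 0.759).

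The low duct markers gave the other 5 values. *Krt19* was 3.04 CPM in control Chow replicate 5 (others 1.03 to 1.79) and 0.569 CPM in KO HF/HS replicate 6 (others 1.41 to 1.9), the latter from 24 counts. KO Chow replicate 6 was high in *Krt7* at 1.23 CPM (56 counts, others 0.5 to 0.736) and in *Cftr* at 0.418 CPM (19 counts, others 0.0682 to 0.168). *Epcam* was 1.64 CPM in control HF/HS replicate 5 (others 0.991 to 1.22).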

How the results depend on the processing

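Apart from fits that left out 1 mouse, the members' differences kept their direction under every alternative run except *Krt7* by genotype on chow with the replicate block (-0.09) and *Spp1* by genotype on HF/HS without the 3 acute phase mice (0.01). DESeq2 called 13 genes for genotype on chow, 55 on HF/HS and 161 over both diets, and 1401 for diet in HGFAC-KO mice. It called 1 member on HF/HS and 1 over both diets (*Sox9*) and 1 for diet in controls (*Krt8*), called *Krt8* for diet in HGFAC-KO mice and over both genotypes as edgeR did, and gave no adjusted p for 5 of 7 members on chow. Limma voom and upper-quartile normalization each called 1 member over both diets (*Sox9*). With all 27 mice in the fit, 1 gene was called for genotype on HF/HS, 1 member for diet in controls (*Krt8*) and 0 for diet in HGFAC-KO mice. The latter was also 0 without the low-count filter, with the replicate block and without the 3 acute phase mice. Without those mice 519 genes were called for diet in HGFAC-KO mice, 45 for genotype over both diets, and of the members 2 for diet in controls and 2 for diet over both genotypes (*Krt8* and *Krt18* in each), and 1 for genotype over both diets (*Sox9*). With all mice of each comparison, edgeR called 10.5% of all tested genes for diet in controls and 23.5% over both genotypes. The replicate block gave 774 genes for diet in controls and an adjusted p of 0.0621 for *Krt8* in HGFAC-KO mice, and changed no other member call. The causes were not tested.

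Leaving out 1 mouse at a time gave 2 to 11 genes for genotype on HF/HS and 1 to 66 over both diets. For diet it gave 976 to 1780 genes in controls and 467 to 950 in HGFAC-KO mice. Members called ran from 0 to 2 for diet in controls, and from 0 to 1 both for diet in HGFAC-KO mice and for genotype over both diets. Differences that crossed 0 were, for genotype on chow, *Krt7* (-0.19 to 0.13), *Krt19* (-0.1 to 0.25) and *Krt18* (-0.14 to 0.02). For genotype on HF/HS they were *Krt7* (-0.27 to 0.01), *Krt8* (-0.13 to 0.04), *Epcam* (-0.17 to 0.04) and *Spp1* (-0.09 to 0.02). For diet they were *Epcam* in controls (-0.16 to 0.08) and, in HGFAC-KO mice, *Krt18* (-0.14 to 0.02), *Sox9* (-0.14 to 0.03) and *Spp1* (-0.14 to 0.15). For the interaction they were *Krt7* (-0.29 to 0.1), *Krt19* (-0.13 to 0.22) and *Krt8* (-0.02 to 0.18). *Cftr*, *Krt7*, *Krt19* and *Epcam* rest on at most 139 counts per mouse, which limits what their comparisons can show.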

Other observations

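Gene lists of other cells gave values that belong to no comparison of the duct markers. In the Kupffer cell and macrophage list, *C1qa* (log2 0.49), *Cd68* (0.51) and *Clec4f* (0.65) rose on HF/HS in HGFAC-KO mice in edgeR, where 5.89% of all tested genes passed (10.5% in controls). Of the lipid-associated macrophage genes, *Fabp5*, a fatty acid carrier, rose in controls (1.83) and in HGFAC-KO mice (1.75), *Lgals3* rose in HGFAC-KO mice (0.55), and the lysosomal protease *Ctsd* fell by 0.16 in controls. *Lrat*, the retinol-storing enzyme of stellate cells, fell by 0.60 in controls. It was the only call there among 12 tested stellate cell genes, of which 10 were higher and 2 lower (10.5% of all genes called). Over both genotypes 2 of the 12 passed as higher on HF/HS and 1 as lower, beside 23.5% of all genes. *Stab2*, a scavenger receptor of sinusoidal endothelium, rose by 0.42 in HGFAC-KO mice. With 1 mouse left out, the calls held in 3 of 13 fits for *Lgals3*, 5 of 14 for *Ctsd* and 11 of 14 for *Lrat*, and in all fits for the others named here.

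Of 12 hepatocyte genes, *Ass1* of the urea cycle fell by 0.59 in controls and by 0.54 in HGFAC-KO mice, *Tat*, which degrades tyrosine, fell by 0.51 and 0.75, and *Apoa1* rose by 0.39 in controls. Without single mice, the *Tat* call in controls held in 2 of 14 fits and the other calls named here in all. *Alb* was higher in HGFAC-KO mice over both diets (log2 0.30, edgeR adjusted p = 0.0304), in a comparison where 0.1% of all genes passed. That call held in 22 of 27 fits and was lost without control HF/HS replicate 1, KO Chow replicate 1 or 3, or KO HF/HS replicate 1 or 7 (edgeR adjusted p = 0.0503 to 0.0635). None of the 14 acute phase genes passed within a diet or genotype. Of all genes 0.00737% (chow) and 0.0148% (HF/HS) passed for genotype, and 10.5% (controls) and 5.89% (HGFAC-KO mice) for diet. Over both genotypes 11 of 14 were lower on HF/HS and 1 passed, beside 23.5% of all genes: *Orm3* (log2 -1.13, edgeR adjusted p = 0.0226). That call held in 26 of 27 fits that left out 1 mouse and was lost without KO Chow replicate 4 (edgeR adjusted p = 0.0569). In the gallbladder, pancreas and gut list, 5 of 16 genes were tested in the comparisons within a diet or genotype. *Fabp2* alone passed there, 1 of 5 beside 10.5% of all genes (0.71 in controls on HF/HS, from 66.8 to 109 CPM).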
